A study of Mus musculus with 2 samples.

Results

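The genes of major histocompatibility complex (MHC) class II presentation were followed through the single-cell transcriptomes of KPCA.FSTKO and KPCA.FSTKO_hFSTL3 tumors. They are H2-Aa, H2-Ab1, H2-Eb1, H2-DMa, H2-DMb1, Cd74 and Ciita, taken by symbol, which makes 7 of the 32285 genes in the files, and all 7 had UMIs in both libraries. KPCA is a mouse cell line of ovarian cancer origin, and tumors formed in the omentum of female C57BL/6J mice of 12 to 16 weeks were collected at day 10 post-graft. Fst, the follistatin gene, was knocked out in both cell lines, and KPCA.FSTKO_hFSTL3 is a single stable clone made from KPCA.FSTKO by adding a human FSTL3 plasmid. Each genotype is 1 library from 4 pooled tumors, so no value has a replicate and no test between genotypes or classes was possible. Unique molecular identifiers (UMIs) count captured transcript 3′ ends, and levels are given as CPM, that is, the UMIs of a gene in 1000000 UMIs of all genes in the same cells. Values stand beside 95% intervals that cover counting error alone, taken from an exact Poisson limit for a level, a Clopper-Pearson limit for a share of cells and a binomial limit on the summed counts for a ratio.

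After removal of barcodes with a mitochondrial share of 20% or more, or with 200 genes or fewer or 8000 or more, 6777 of 7582 barcodes remained in KPCA.FSTKO and 4041 of 4244 in KPCA.FSTKO_hFSTL3. Cells were sorted into classes by counting detected marker genes, with no class II gene among the markers. This gave 33 and 2 dendritic-gated, 807 and 123 macrophage-gated, 40 and 12 monocyte-gated, 84 and 10 endothelial-gated, 320 and 43 stromal-gated, and 3631 and 201 cancer-gated cells in KPCA.FSTKO and KPCA.FSTKO_hFSTL3, respectively. The libraries stand apart in 1 respect that touches every comparison between them. In KPCA.FSTKO_hFSTL3, 3487 barcodes carried pancreatic acinar genes at 3200 CPM or more and were set aside as mixed, against 87 in KPCA.FSTKO, and the gated classes that remained still held 394 to 2161 CPM of acinar genes where they had more than 1 cell, against 31.5 to 292 CPM. Barcodes that passed the gate of more than 1 class, 434 and 106, were also set aside, since such barcodes may hold 2 cells, and 12 barcode sequences occurred in both libraries. Fst was counted at 5.06 CPM in cancer-gated and 125 CPM in stromal-gated cells of KPCA.FSTKO. In the other library its levels were 7.82 CPM in cancer-gated and 211 CPM in stromal-gated cells. These 3′ counts do not show whether the deleted part of Fst is absent.

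Class II molecules display peptides from the endosomal pathway to CD4+ T cells. H2-Aa and H2-Ab1 code for the α and β chains of I-A, and H2-Eb1 for the β chain of I-E, which C57BL/6 mice do not display because their I-E α chain gene is defective. Cd74, the invariant chain, escorts new class II molecules and blocks their groove, H2-DMa and H2-DMb1 form the H2-DM exchange factor that helps load the peptide, and Ciita is the transactivator that switches the whole group on. Dendritic cells, B cells and macrophages are the classical antigen-presenting cells, and many other cells, tumor cells among them, can produce class II molecules under interferon gamma. In GENCODE vM21 on the mouse build GRCm38 (mm10), the files' reference, 5 of the members lie in the MHC on chromosome 17. H2-DMa (ENSMUSG00000037649) spans chr17:34119541-34139101 and H2-DMb1 (ENSMUSG00000079547) spans chr17:34153072-34160230. H2-Ab1 (ENSMUSG00000073421) spans chr17:34257689-34269419, H2-Aa (ENSMUSG00000036594) spans chr17:34282744-34287823 on the minus strand, and H2-Eb1 (ENSMUSG00000060586) spans chr17:34305867-34316674. Ciita (ENSMUSG00000022504) spans chr16:10480059-10528418.

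Class II promoters are read by an enhanceosome in which RFX proteins bind the X box, CREB binds beside it and NF-Y binds the Y box, with CIITA as the coactivator on top. RefSeq promoter windows of 300 bases (GRCm38.p6, 250 before the gene start and 50 after) were at hand for 4 of the 7 members. The 120 bases before the RefSeq start are shown for H2-DMb1 (chr17:34153071-34153190, plus strand), H2-Aa (chr17:34287824-34287943, minus strand) and H2-Eb1 (chr17:34305747-34305866, plus strand). H2-DMb1 is the exchange factor gene that departs from the other members in cancer-gated cells of KPCA.FSTKO, and the others are a chain gene each of I-A and I-E. Capitals mark matches on either strand to GATTGG (the Y box core), GNAAC followed directly by NGATG (X box letters) or TGACG (the CREB core), and in H2-Aa 2 matches to TGACG overlap.
H2-DMb1: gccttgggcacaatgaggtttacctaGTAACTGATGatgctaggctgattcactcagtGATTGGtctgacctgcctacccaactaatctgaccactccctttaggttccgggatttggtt
H2-Aa: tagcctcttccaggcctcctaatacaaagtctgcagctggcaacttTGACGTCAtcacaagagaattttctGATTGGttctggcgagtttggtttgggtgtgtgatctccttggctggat
H2-Eb1: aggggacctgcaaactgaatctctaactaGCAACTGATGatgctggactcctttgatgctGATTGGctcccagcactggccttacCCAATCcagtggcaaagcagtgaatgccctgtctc

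H2-DMb1 and H2-Eb1 have the same order of letters, an X box match starting 94 and 91 bases before the start and a GATTGG starting 62 and 60 bases before it. H2-Aa has GATTGG 49 bases before its start and no match to the X box letters. Of all 32851 promoter windows of this length, 16.1% hold GATTGG, 0.782% hold the X box letters, 20.8% hold TGACG, and 47 windows (0.143%) hold both GATTGG and the X box letters. H2-DMa has 2 windows, of which 1 holds GATTGG, 199 bases before its start, and neither holds the other letters. The annotated GENCODE start of H2-DMb1 lies at 34153072, so all but the first base of the H2-DMb1 stretch lies within the gene as GENCODE draws it. A match of letters is a description and does not show binding.

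Across the gated classes of KPCA.FSTKO, the summed members were highest in dendritic-gated cells at 33593 CPM (32998 to 34195) and lower in macrophage-gated cells at 4848 CPM (4807 to 4890), a 6.93-fold difference (6.79 to 7.07). Monocyte-gated cells held 3107 CPM, stromal-gated cells 323 CPM, cancer-gated cells 38.4 CPM and endothelial-gated cells 25.8 CPM. Macrophage-gated over cancer-gated cells, the ratio was 126 (122 to 130). In KPCA.FSTKO_hFSTL3 dendritic-gated cells held 24341 CPM in 2 cells, macrophage-gated cells 4120 CPM, monocyte-gated cells 3969 CPM, stromal-gated cells 817 CPM, cancer-gated cells 15.1 CPM and endothelial-gated cells 6.38 CPM from 1 UMI. The dendritic over macrophage ratio there was 5.91 (5.44 to 6.41) and the macrophage over cancer ratio 273 (230 to 326). With classes from clusters the dendritic over macrophage ratios were 4.39 in KPCA.FSTKO and 2.16 in KPCA.FSTKO_hFSTL3. The macrophage over cancer ratio was 83.6 in KPCA.FSTKO with cells of more than 1 class kept, and in KPCA.FSTKO_hFSTL3 it was 75.4 with those cells kept, 106 with no acinar limit, 159.7 as a mean of cells and 179.7 with a stricter gate. The 6 classes stood in the same order in both libraries. Neighbours in the order overlapped within counting error for cancer-gated and endothelial-gated cells in both libraries (ratio of endothelial over cancer 0.671, 0.383 to 1.09, in KPCA.FSTKO), and for macrophage-gated and monocyte-gated cells in KPCA.FSTKO_hFSTL3 (ratio 1.04, 0.958 to 1.13).

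Among the other classes of KPCA.FSTKO, 21 B cell-gated cells held 4057 CPM (3739 to 4395), between macrophage-gated and monocyte-gated cells. T and NK cell-gated cells held 130 CPM and neutrophil-gated cells 86.1 CPM, with overlapping intervals. The abundance of a class and its level gave different rankings of where the transcripts sat. Macrophage-gated cells held 62.8% of the 83062 member UMIs of KPCA.FSTKO with 7.56% of all its UMIs, dendritic-gated cells 14.6% with 0.255%, and cancer-gated cells 4.99% with 75.8%. In KPCA.FSTKO_hFSTL3 the mixed barcodes held 74.0% of the 58100 member UMIs with 77.2% of all its UMIs. The gated classes thus describe a minor share of the class II transcripts of that library.

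**Figure D1:**
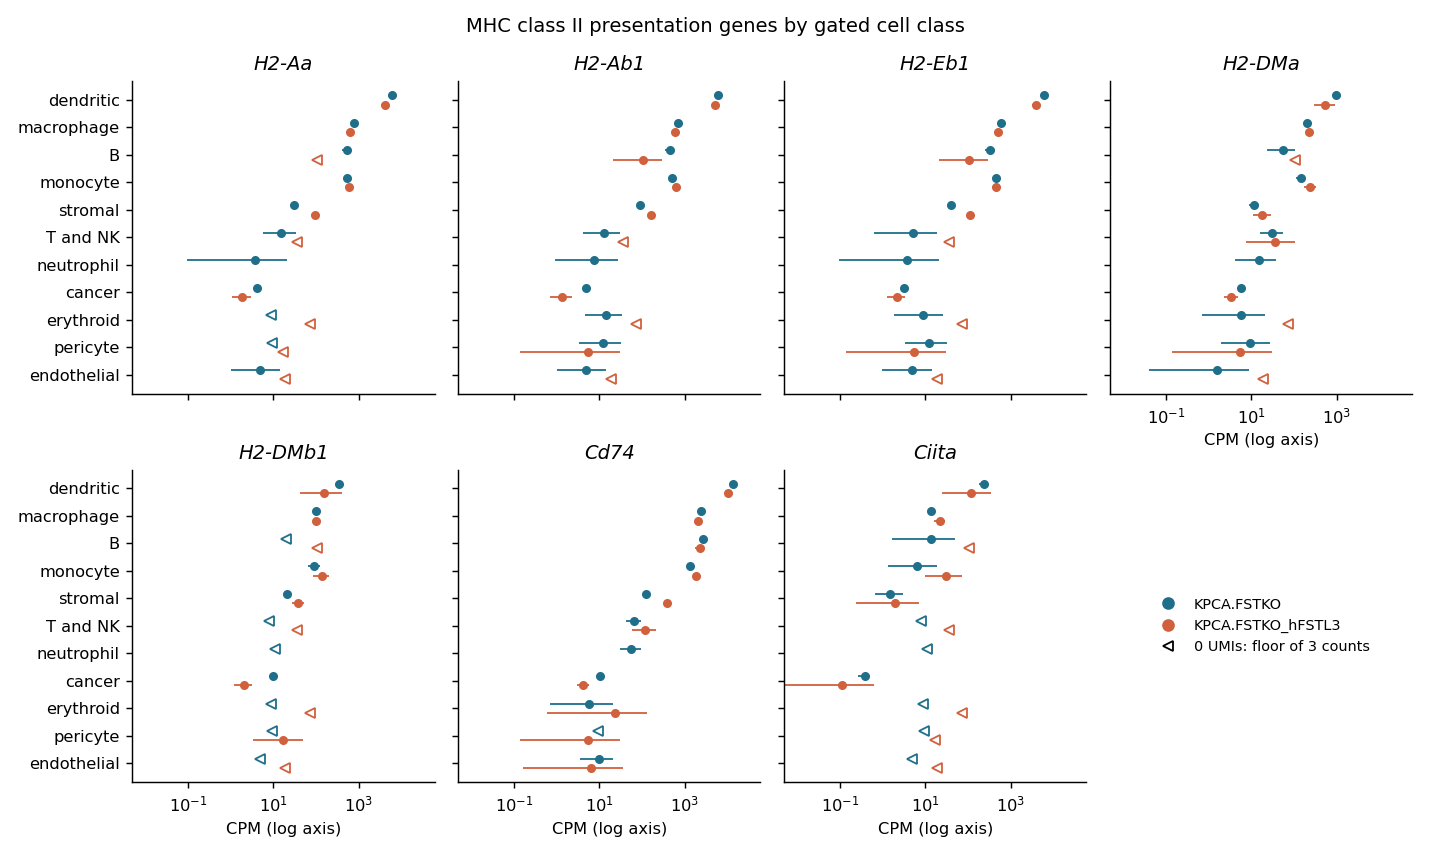
CPM of each of the 7 genes (log axis) in the gated classes of KPCA.FSTKO (blue) and KPCA.FSTKO_hFSTL3 (orange), with bars for exact 95% counting intervals and open triangles at the floor of 3 counts where no UMI was found. All 7 genes are highest in dendritic-gated cells, and H2-DMb1 is the gene for which cancer-gated cells (9.69 CPM in KPCA.FSTKO) come nearest to macrophage-gated cells (101 CPM).

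The chain genes ranged widely over the classes. H2-Aa was counted at 5933 CPM in dendritic-gated, 769 CPM in macrophage-gated, 541 CPM in monocyte-gated, 29.8 CPM in stromal-gated, 4.09 CPM in cancer-gated and 4.83 CPM in endothelial-gated cells of KPCA.FSTKO. In KPCA.FSTKO_hFSTL3 its levels were 4083, 621, 598, 92.7 and 1.90 CPM in the first 5 of these classes, and 0 of 156725 UMIs in endothelial-gated cells, a count of 0 that allows up to 19.1 CPM. H2-Ab1, its partner chain, was counted at 6055, 703, 509, 91.3, 5.01 and 4.83 CPM in KPCA.FSTKO. The 2 chains of I-A were thus present in near equal numbers in the professional classes, with 0.980 H2-Aa UMIs per H2-Ab1 UMI (0.923 to 1.04) in dendritic-gated and 1.09 (1.06 to 1.13) in macrophage-gated cells. In stromal-gated cells it was 0.326 (0.271 to 0.391) in KPCA.FSTKO, with 0.561 (0.433 to 0.725) in the other library, so H2-Ab1 outnumbered H2-Aa there. H2-Eb1, the I-E β chain that has no displayed partner in this strain, was nevertheless transcribed at 6165 CPM in dendritic-gated, 600 CPM in macrophage-gated and 41.2 CPM in stromal-gated cells of KPCA.FSTKO. The gene Gm20513 overlaps H2-Eb1 on the opposite strand.

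Cd74, the escort of new class II molecules, was the most abundant member in every one of the 6 classes in both libraries. It reached 13907 CPM in dendritic-gated, 2456 CPM in macrophage-gated, 1369 CPM in monocyte-gated, 126 CPM in stromal-gated, 10.3 CPM in cancer-gated and 9.66 CPM in endothelial-gated cells of KPCA.FSTKO. Each UMI is 1 captured 3′ end whatever the length of the transcript, so these counts were set beside those of other genes without scaling by length. Cd74 UMIs per H2-Ab1 UMI were 2.30 (2.18 to 2.42) in dendritic-gated, 3.50 (3.41 to 3.59) in macrophage-gated, 6.02 (4.63 to 7.93) in B cell-gated and 1.38 (1.22 to 1.55) in stromal-gated cells. In KPCA.FSTKO_hFSTL3 the macrophage ratio was 3.45 (3.25 to 3.66), within counting error of the KPCA.FSTKO value.

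The exchange factor genes were scarcer and less steeply graded. H2-DMa was counted at 947 CPM in dendritic-gated, 205 CPM in macrophage-gated, 11.8 CPM in stromal-gated and 5.77 CPM in cancer-gated cells of KPCA.FSTKO. The same 4 classes of KPCA.FSTKO_hFSTL3 held 550, 221, 18.3 and 3.35 CPM. H2-DMb1 was counted in these classes at 354, 101, 21.2 and 9.69 CPM in KPCA.FSTKO, while KPCA.FSTKO_hFSTL3 had 157, 103, 38.6 and 2.01 CPM. The macrophage over cancer ratio in KPCA.FSTKO was 10.5 (9.61 to 11.4) for H2-DMb1 and 35.5 (32.5 to 38.9) for H2-DMa, against 239 (225 to 254) for Cd74 and 188 (171 to 207) for H2-Aa. H2-DMb1 UMIs per H2-DMa UMI were 0.373 in dendritic-gated and 0.495 in macrophage-gated cells but 1.79 (1.31 to 2.48) in stromal-gated and 1.68 (1.52 to 1.86) in cancer-gated cells. H2-DMb1 has a near-identical neighbour, H2-DMb2, and 4 genes overlap H2-DMa (Brd2, CR974462.3, CR974462.4 and Gm20493), so reads of both subunits are uncertain in part. H2-DMb2 reached 315 CPM in dendritic-gated cells of KPCA.FSTKO, close to H2-DMb1, but 5.86 CPM in macrophage-gated and at most 4.29 CPM in the other 4 classes. B cell-gated cells had no H2-DMb1 UMI among 147877, which allows up to 20.3 CPM, although all 21 of them carried Cd74.

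Ciita, the transactivator of the group, was counted at 232 CPM (185 to 287) in dendritic-gated and 13.7 CPM (11.5 to 16.1) in macrophage-gated cells of KPCA.FSTKO, a ratio of 17.0 (12.8 to 22.3) and the largest dendritic over macrophage ratio of the 7 members. The ratios of the others ran from 3.48 for H2-DMb1 to 10.3 for H2-Eb1. A Ciita UMI was found in 22 of 33 dendritic-gated cells (66.7%) and in 91 of 807 macrophage-gated cells (11.3%), at similar depth (medians of 10739 and 12762 UMIs). After each cell was thinned to 1000 UMIs, which left out 1 dendritic-gated cell, these shares were 12.5% and 1.00%. In KPCA.FSTKO_hFSTL3 Ciita reached 118 CPM from 3 UMIs in dendritic-gated and 21.7 CPM (16.2 to 28.6) in macrophage-gated cells. The gene Dexi overlaps Ciita on the opposite strand.

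Single dendritic-gated cells of KPCA.FSTKO ran from 409 through a median of 33430 to 65607 CPM of summed members, and 29 of the 33 were at 10000 CPM or more. The 2 cells of KPCA.FSTKO_hFSTL3 held 30344 and 17121 CPM. By the marker list with most detected genes, 19 KPCA.FSTKO cells were led by type 1 conventional markers (Xcr1, Clec9a and others), 3 by type 2 markers (Cd209a, Ccl17 and others), 7 by migratory markers (Ccr7, Ccl22 and others), and 4 were tied. Of these lists as counted, type 1 was the longest and type 2 the shortest, so the numbers of cells lean toward type 1. The migratory-led cells held 16885 CPM (15848 to 17971), below the type 1-led cells at 35525 CPM (34756 to 36306) and the type 2-led cells at 43339 CPM (41156 to 45608). H2-DMa was 154 CPM (70.3 to 292, from 9 UMIs) in migratory-led against 1064 CPM in type 1-led cells. H2-DMb1 was 51.3 CPM (10.6 to 150, from 3 UMIs) against 442 CPM. Pooled over cells, and on these few UMIs in 7 migratory-led cells, the exchange factor genes differed more than Cd74 (7707 against 14822 CPM). The single cells overlapped, since migratory-led cells spanned 2535 to 32605 CPM and type 1-led cells 4494 to 48695 CPM. Macrophage markers summed to 149 CPM in dendritic-gated cells of KPCA.FSTKO, with 3 of the 12 at 0, against 11947 CPM in macrophage-gated cells.

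**Figure D2:**
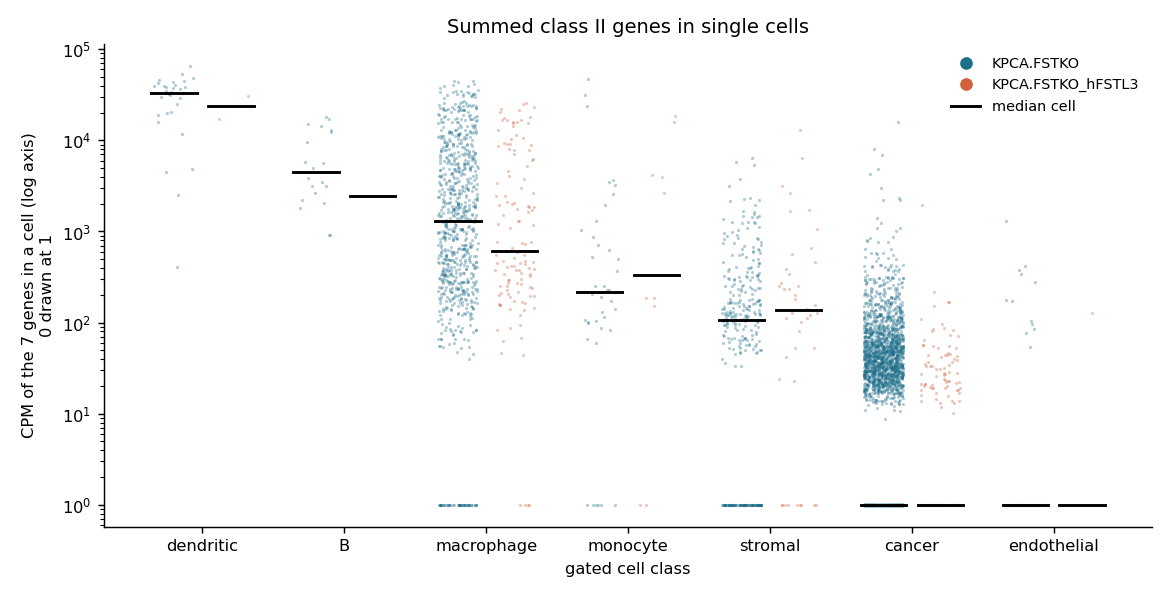
Summed CPM of the 7 genes in each cell (log axis, cells without a member UMI drawn at 1) by gated class and library, with the median as a black line. Macrophage-gated cells of KPCA.FSTKO spread from 0 to 44766 CPM around a median of 1299 CPM, and most dendritic-gated cells lie above 10000 CPM.

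Macrophage-gated cells were far more heterogeneous. In KPCA.FSTKO their summed members had a median of 1299 CPM with quartiles of 292 and 5785 CPM, and in KPCA.FSTKO_hFSTL3 a median of 604 CPM with quartiles of 247 and 5623 CPM. The top 10% of cells held 53.6% and 52.2% of the member UMIs of the class, respectively. At least 1 member UMI was found in 94.1% of macrophage-gated cells of KPCA.FSTKO and 96.7% of those of KPCA.FSTKO_hFSTL3, and after thinning to 1000 UMIs in 63.7% and 61.8%. The share at 10000 CPM or more was 16.7% (135 cells) and 16.3% (20 cells), and those cells held 66.4% and 67.1% of the member UMIs.

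The make-up of the class II transcripts differed along this range, as the plot of shares by level shows. In the 125 KPCA.FSTKO cells at 100 to 300 CPM, H2-DMa made up 41.4% of the member UMIs, Cd74 23.7%, H2-Aa 3.54% and H2-Eb1 1.91%. In the 135 cells at 10000 CPM or more, H2-DMa made up 2.81%, Cd74 48.0%, H2-Aa 17.6% and H2-Eb1 14.7%. In the same bins of KPCA.FSTKO_hFSTL3, H2-DMa made up 40.7% in 27 cells and 2.71% in 20 cells, and Cd74 27.5% and 49.3%, while H2-Eb1 (7.69%) stood above H2-Aa (1.10%) in the lower bin. The bins are cut on the sum of the same genes, so a member with a steady level must take a larger share of a small sum. Median depth was 13428 and 11894 UMIs in the lower and upper KPCA.FSTKO bins, and C1qa, C1qb and C1qc, the complement genes that mark tissue macrophages, summed to 6586 and 9418 CPM.

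**Figure D3:**
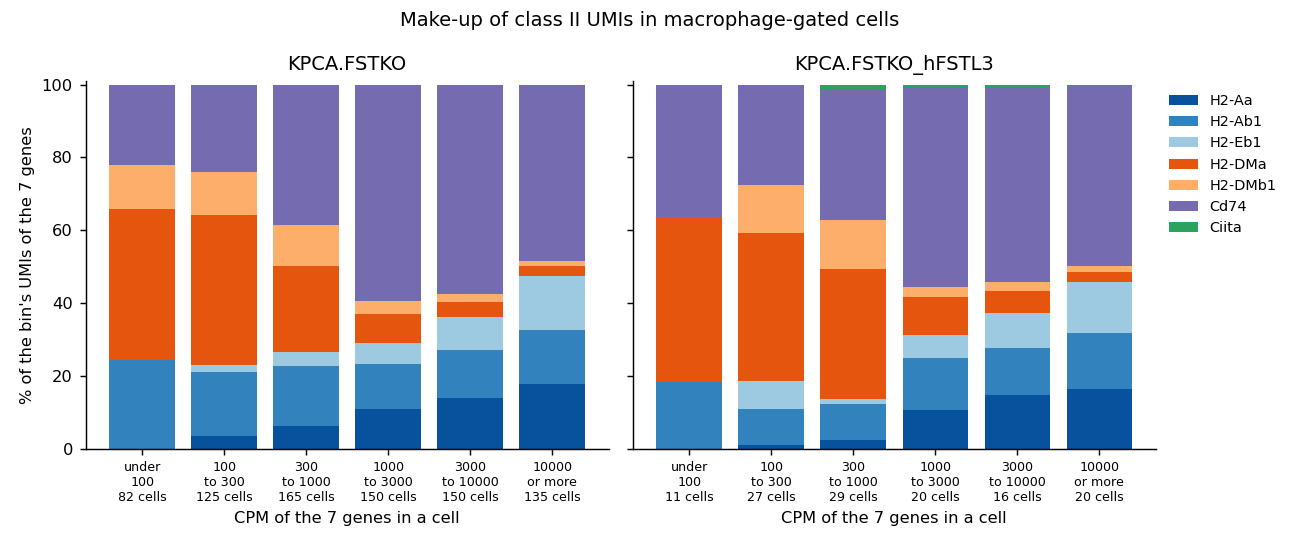
Share of each of the 7 genes in the class II UMIs (vertical axis, %) of macrophage-gated cells, binned by the summed CPM of the 7 genes in a cell (horizontal axis) for each library. In KPCA.FSTKO, H2-DMa makes up 41.4% and Cd74 23.7% in the 100 to 300 CPM bin, against 2.81% and 48.0% in the bin of 10000 CPM or more.

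The class II level was set beside other macrophage genes, both pooled over cells and for the median cell. Splits by Arg1 and Itgax were made within macrophage-gated cells, and the C1q bins over macrophage-gated and monocyte-gated cells together. All monocyte-gated cells, 40 and 12 in the libraries, fall in the bin under 500 CPM of C1q, which holds 42 and 13 cells. By the summed level of the C1q genes, the pooled members were at 2992 CPM in 42 cells under 500 CPM of C1q, 1775 CPM in 62 cells at 1000 to 2000 CPM and 6299 CPM in 381 cells at 8000 CPM or more in KPCA.FSTKO. The median cells of these bins held 230, 316 and 2146 CPM, and over the 6 bins of C1q each median was higher than in the bin below. In KPCA.FSTKO_hFSTL3 the 13 cells under 500 CPM of C1q held 3805 CPM and the 56 cells at 8000 CPM or more held 4713 CPM pooled, with medians of 332 and 1310 CPM. The medians of that library did not rise at every step. They were 84.0 CPM in 2 cells at 500 to 1000 CPM of C1q, 375 CPM in 7 cells at 1000 to 2000 CPM and 302 CPM in 16 cells at 2000 to 4000 CPM. Cells at or under the median of Arg1, the arginase gene of alternatively activated macrophages, held 6992 CPM against 3233 CPM pooled in cells over it, and 5749 against 2751 CPM in KPCA.FSTKO_hFSTL3, but the median cells were closer, at 1396 against 1121 CPM and 710 against 547 CPM. From cell to cell, Arg1 correlated with the summed members at r = 0.0806 in KPCA.FSTKO and 0.147 in KPCA.FSTKO_hFSTL3. The log2 total of UMIs gave 0.183 and 0.274. The 95 KPCA.FSTKO cells with a UMI of Itgax, which codes for the integrin CD11c, held 12742 CPM against 3590 CPM in the other 712, and in KPCA.FSTKO_hFSTL3 24 such cells held 7746 against 3026 CPM in 99. The medians there were 10992 against 973 CPM and 8310 against 454 CPM. The splits by Arg1 and Itgax were chosen after values were seen. The C1q level at which a mononuclear cell was called a monocyte, 500 CPM, cuts a range and not a type, and 21 and 2 cells lay within 1.5 times of it.

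Monocyte-gated cells owed their level to a few cells. Their median was 217 CPM in KPCA.FSTKO and 333 CPM in KPCA.FSTKO_hFSTL3, the highest cells held 47171 and 18597 CPM, and the top 10% of cells, 4 and 2, held 84.6% and 80.1% of the member UMIs. Endothelial-gated cells had 16 member UMIs in 12 of 84 cells of KPCA.FSTKO and 1 UMI in 10 cells of KPCA.FSTKO_hFSTL3, with no H2-DMb1 or Ciita UMI in either library. Their 14.3% of cells with a UMI, at a median of 4161 UMIs, was below the 19.4% of neutrophil-gated cells at a median of 2646 UMIs, a class that is not an antigen-presenting one. After thinning to 1000 UMIs the shares were 2.50% and 6.19%.

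Stromal-gated cells carried class II transcripts at 8.40 times (7.93 to 8.88) the cancer level in KPCA.FSTKO and 54.2 times (45.1 to 65.4) in KPCA.FSTKO_hFSTL3. A member UMI was found in 70.3% and 79.1% of them, and after thinning to 1000 UMIs in 18.8% and 32.6%, against 2.70% and 0.498% of cancer-gated and 6.19% of neutrophil-gated cells in KPCA.FSTKO. Per UMI of the C1q genes the members stood at 10.7 and 40.3 UMIs in the stromal-gated cells of the libraries, while macrophage-gated cells had 0.613 and 0.525. Ptprc, the leukocyte gene for CD45, had 4 UMIs in each library's stromal-gated cells, macrophage markers summed to 190 and 161 CPM with 1 and 3 of the 12 at 0, and the shared dendritic markers to 24.2 and 25.1 CPM with 1 and 2 of the 3 at 0. Migratory dendritic markers summed to 103 and 136 CPM with 1 and 3 of the 5 at 0, and the monocyte list, which holds the matrix genes Fn1 and Vcan, to 3484 and 4093 CPM with 1 and 3 of the 8 at 0. The migratory list also summed to 117 and 137 CPM in cancer-gated and 283 and 204 CPM in endothelial-gated cells. In stromal-gated cells the type 1 dendritic list summed to 24.9 and 30.9 CPM, and the type 2 list to 1.12 and 0.965 CPM. The part of leukocytes in the stromal level was not tested.

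The stromal level was higher in cells with mesothelial markers, that is, genes of the lining of the peritoneum such as Lrrn4, Upk3b and Wt1. Cells with fibroblast markers only held 218 CPM (204 to 233) in 249 cells of KPCA.FSTKO and 205 CPM (174 to 240) in 33 cells of KPCA.FSTKO_hFSTL3. Cells that passed on both fibroblast and mesothelial markers held 646 CPM (602 to 693) in 61 cells and 2398 CPM (2223 to 2583) in 10 cells, with C1q at 34.5 and 20.8 CPM and no Ptprc UMI in either. The 10 cells that passed on mesothelial markers only, all in KPCA.FSTKO, held 612 CPM. The 5 highest stromal-gated cells of KPCA.FSTKO_hFSTL3 held 78.0% of its stromal member UMIs, and the top 32 of KPCA.FSTKO held 63.1%. This division of the stromal cells was chosen after values were seen.

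Cancer-gated cells held 38.4 CPM of the members in KPCA.FSTKO and 15.1 CPM in KPCA.FSTKO_hFSTL3, and the median cell had none. A UMI of any member was found in 45.6% of 3631 cells and 39.3% of 201 cells at median depths of 27787 and 45016 UMIs. At 1000 UMIs per cell, with 5 and 0 cells left out, the shares were 2.70% (2.20 to 3.28) and 0.498% (0.0126 to 2.74). Neutrophil-gated cells of KPCA.FSTKO, a class that should lack class II, had 6.19% (2.30 to 13.0), which overlaps the KPCA.FSTKO value, and KPCA.FSTKO_hFSTL3 had no neutrophil-gated cell to set beside its own. These shares do not set the cancer class against a matched background, since C1q RNA differed between the classes. C1q had 32 UMIs among 267233 in neutrophil-gated cells of KPCA.FSTKO and stood at 17.2 CPM in its cancer-gated cells. Per C1q UMI the members stood at 0.719 (0.402 to 1.27) and 2.23 (2.11 to 2.36), respectively. Whether the cancer class lies above background was not tested. In composition, H2-DMb1 stood nearly level with Cd74 in KPCA.FSTKO, at 9.69 CPM (9.12 to 10.3) against 10.3 CPM (9.69 to 10.9).

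Each member was also counted per 100 UMIs of the C1q genes, which macrophages express. How much of the cancer-class counts is free RNA, and from which cells, was not tested. H2-DMb1 stood at 56.2 (52.1 to 60.7) in cancer-gated cells of KPCA.FSTKO and at 1.28 in its macrophage-gated cells, which makes 43.8 times the macrophage ratio. The same multiple was 12.9 for H2-DMa, 12.8 for Ciita, 3.27 for H2-Ab1, 2.44 for H2-Aa, 2.44 for H2-Eb1 and 1.92 for Cd74. In KPCA.FSTKO_hFSTL3 it was 8.39 for H2-DMb1, 6.49 for H2-DMa and 2.20 for Ciita, and between 0.882 and 1.84 for the other 4 members. No H2-DMb1 UMI was found among 1935316 UMIs of neutrophil, T and NK, erythroid, pericyte and endothelial-gated cells of KPCA.FSTKO (360 cells), which allows up to 1.55 CPM, although these cells held 57.9 CPM of the members together. The same classes of KPCA.FSTKO_hFSTL3 held 3 H2-DMb1 UMIs in 1 of 32 cells.

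H2-DMb1 was spread over the cancer-gated cells of KPCA.FSTKO. A UMI was found in 774 of 3631 cells (21.3%), of which 582 had a single UMI, and the highest cell had 7. Over the 7 clusters that held most of these cells it ranged from 4.32 to 10.8 CPM. A set of 38 cells with at least 10 member UMIs held 37.0% of the member UMIs of the class, with Cd74 at 525 CPM and C1q at 23.0 CPM against 17.2 CPM in the rest. Ptprc had 13 UMIs in these 38 cells and 59 UMIs in the other 3593 cells. Whether the 38 cells hold leukocyte RNA was not tested. Without the 38 cells H2-DMb1 stood at 9.05 CPM and Cd74 at 4.21 CPM. In KPCA.FSTKO_hFSTL3, 13 of 201 cells (6.47%) had an H2-DMb1 UMI, and 1 cell with at least 10 member UMIs also held 1501 CPM of C1q.

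**Figure D4:**
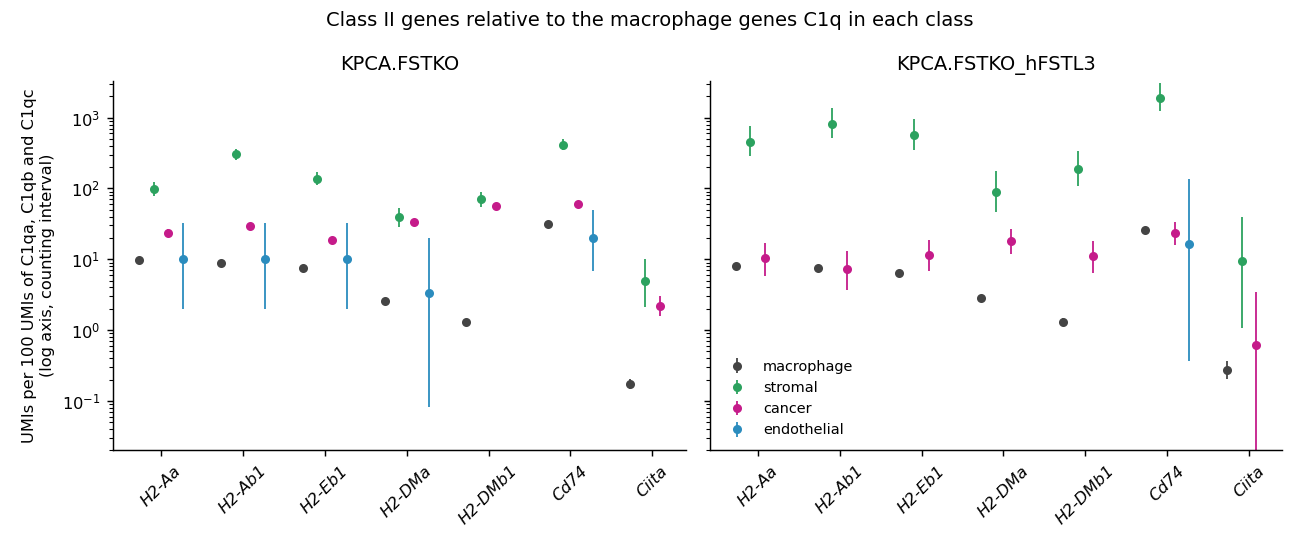
UMIs of each of the 7 genes per 100 UMIs of C1qa, C1qb and C1qc (log axis) in macrophage, stromal, cancer and endothelial-gated cells of each library, with 95% counting intervals and no point where a gene had no UMI. In KPCA.FSTKO cancer-gated cells (pink) lie nearest to macrophage-gated cells (grey) for Cd74 and farthest for H2-DMb1, at 56.2 against 1.28.

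Between the libraries, genes were compared by a rule of size, a sum of 100 or more UMIs and a 2-fold or larger difference in CPM, which describes these 2 libraries and is no test. In macrophage-gated cells, where 1.55% of 8582 genes were higher and 1.61% lower in KPCA.FSTKO_hFSTL3, 0 of 7 members were higher and 0 were lower. The summed members stood at 0.850 of the KPCA.FSTKO level (0.831 to 0.868). H2-Aa (0.808), H2-Eb1 (0.825), Cd74 (0.839) and H2-Ab1 (0.850) were each below 1 beyond counting error, and Ciita was above it at 1.59 (1.13 to 2.20) from 51 and 147 UMIs. H2-DMa at 1.08 (0.978 to 1.19) and H2-DMb1 at 1.01 (0.876 to 1.16) did not differ beyond counting error, and under TMM scaling, which moves every log2 ratio by -0.13 in macrophage-gated and stromal-gated cells and by -0.099 in cancer-gated cells, their direction flips. No other member changed direction under that scaling in these 3 classes. The median log2 ratio was -0.23 over the members and 0.10 over all 8582 genes. Acinar genes stood at 78.8 CPM in macrophage-gated cells of KPCA.FSTKO and 1037 CPM in those of KPCA.FSTKO_hFSTL3, and their part in these ratios was not tested.

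In stromal-gated cells, where 1.44% of 7348 genes were higher and 2.86% lower, 5 of the 7 members had enough UMIs, and 3 of them were higher in KPCA.FSTKO_hFSTL3 and none lower. H2-Aa stood at 3.11 (2.39 to 4.03), Cd74 at 3.07 (2.71 to 3.48) and H2-Eb1 at 2.76 (2.19 to 3.47), while H2-DMb1 at 1.82 (1.24 to 2.64) and H2-Ab1 at 1.81 (1.51 to 2.16) missed the size. The median log2 ratio of these 5 was 1.47, against 0.08 over all 7348 genes. The summed members stood at 2.53 (2.33 to 2.75), or 1.67 without the 5% of cells with most member UMIs. Without cells that passed on mesothelial markers the log2 ratio went from 1.34 to -0.089, where the levels of the libraries overlapped within counting error. Acinar genes stood at 63.9 and 725 CPM in these cells, and their part was not tested.

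In cancer-gated cells, where 3.21% of 12930 genes were higher and 7.15% lower, 6 of the 7 members had enough UMIs, and 4 of them were lower in KPCA.FSTKO_hFSTL3 and none higher. H2-DMb1 stood at 0.207 (0.122 to 0.329) of the KPCA.FSTKO level, H2-Ab1 at 0.268 (0.137 to 0.471), Cd74 at 0.413 (0.290 to 0.570) and H2-Aa at 0.464 (0.268 to 0.752). H2-DMa at 0.581 (0.389 to 0.838) and H2-Eb1 at 0.665 (0.396 to 1.05) did not reach the size. Without the 38 cells of KPCA.FSTKO and the 1 cell of KPCA.FSTKO_hFSTL3 with at least 10 member UMIs, a division chosen after values were seen, H2-Aa stood at 1.84 and 1.79 CPM and Cd74 at 4.21 and 3.69 CPM in the libraries, which no longer reached the size. H2-Ab1 at 2.39 and 1.12 CPM and H2-DMb1 at 9.05 and 2.01 CPM still did. The median log2 ratio of these 6 was -1.19, against 0.01 over all 12930 genes. KPCA.FSTKO_hFSTL3 contributed between 12 and 38 UMIs to each of the 6, and only 201 of its cells passed the cancer gate. Since the line is 1 clone and each genotype 1 library, clone, library and transgene cannot be told apart. C1q stood at 17.2 and 18.3 CPM in the cancer-gated cells of the libraries, and acinar genes at 31.5 and 394 CPM.

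**Figure D5:**
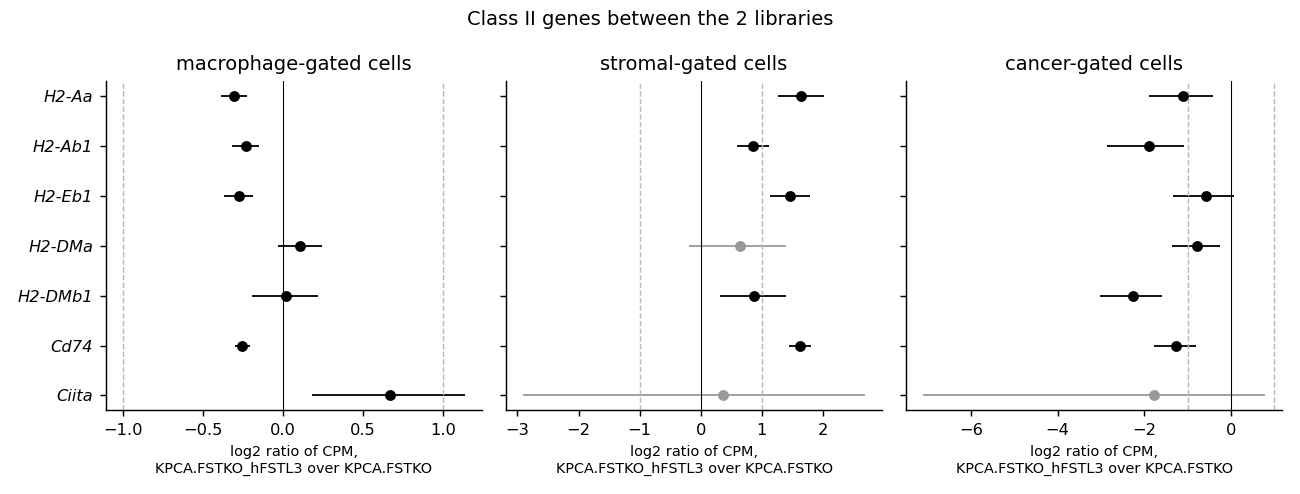
Log2 ratio of CPM, KPCA.FSTKO_hFSTL3 over KPCA.FSTKO, for each of the 7 genes in macrophage, stromal and cancer-gated cells, with 95% counting intervals, dashed lines at a ratio of 2 either way, and grey points for genes under 100 UMIs. The macrophage points lie within the dashed lines, the stromal points lie above 0 and the cancer points below 0. H2-DMa and H2-DMb1 in macrophage-gated cells are the 2 points whose direction flips under TMM scaling.

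For dendritic-gated cells the library ratio was 0.725 (0.667 to 0.786), which rests on 2 cells of KPCA.FSTKO_hFSTL3 and was 0.4635 with classes from clusters and 0.448 with TMM scaling, and for monocyte-gated cells it was 1.28 (1.16 to 1.40) from 12 cells.

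The other genes of the pathway were described by list. Of the other class II genes, H2-Oa and H2-Ob, whose products form the inhibitor of H2-DM, were found in dendritic-gated cells of KPCA.FSTKO at 138 and 55.2 CPM and in B cell-gated cells at 20.3 and 60.9 CPM, against 0.930 and 0.744 CPM in macrophage-gated cells. Among the promoter factors, Rfx5 was at 5.52 CPM in dendritic-gated, 4.37 CPM in macrophage-gated and 4.83 CPM in cancer-gated cells, with only a few UMIs behind the dendritic-gated value. Creb1 stood at 69.1, 44.8 and 37.8 CPM in these classes, highest in dendritic-gated cells. Of the 7 promoter factors, 5 had enough UMIs in macrophage-gated, 4 in stromal-gated and 7 in cancer-gated cells, with none higher or lower between libraries and median log2 ratios of 0.36, 0.44 and -0.12.

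Lysosomal processing genes divided the presenting classes. Cst3, the cathepsin inhibitor cystatin C, was at 19672 CPM in dendritic-gated and 1067 CPM in macrophage-gated cells of KPCA.FSTKO, and Ctss, the protease that trims the invariant chain, at 674 and 2491 CPM. Ifi30, a lysosomal thiol reductase, was at 1163 and 671 CPM. Between libraries 1 of the 10 lysosomal genes was lower in macrophage-gated cells of KPCA.FSTKO_hFSTL3, Ctsl with a log2 ratio of -1.02, none was higher, and their median was -0.11. In cancer-gated cells 2 of the 10 were lower, Lgmn with -1.26 and Ctsh with -1.10, none was higher and the median was -0.46, and of 9 measured in stromal-gated cells none was higher or lower. Of 6 measured surface turnover and costimulation genes none was higher or lower in macrophage-gated cells, with a median of 0.29 and the largest value for Cd80 at 0.98. March1, the ligase that removes class II from the surface, was at 177 CPM in dendritic-gated and 181 CPM in macrophage-gated cells of KPCA.FSTKO. Cancer-gated cells had 1 such gene with enough UMIs, Cd274 (PD-L1), which was lower with a log2 ratio of -2.04 (-3.67 to -0.794). It rests on 5 UMIs in KPCA.FSTKO_hFSTL3 and 247 in KPCA.FSTKO, and the interval reaches short of the 2-fold size.

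Interferon gamma is the main inducer of Ciita outside the professional presenting cells. In KPCA.FSTKO, Ifng was counted at 88.1 CPM in T and NK cell-gated cells and had no UMI in neutrophil-gated, B cell-gated or any of the 6 main classes. No Ifng UMI was found in those classes of KPCA.FSTKO_hFSTL3, where 9 T and NK cells were gated. Cd4, the coreceptor of class II, was at 124 CPM in T and NK cell-gated cells of KPCA.FSTKO. Jak2 was at 668 CPM in dendritic-gated and 38.5 CPM in macrophage-gated cells. Of the 8 listed genes of the interferon gamma input, 6 had enough UMIs in macrophage-gated cells, with none higher or lower and a median log2 ratio of 0.20, and 7 in cancer-gated cells, again with none and a median of -0.12.

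The genes whose levels most resembled the summed members over 14 points, each a class of at least 20 cells in 1 of the libraries, were Ryr1 (r = 0.945), Rnase6 (0.920), Kynu (0.912), Ly86 (0.907) and Slamf9 (0.900), out of 14174 genes. The members' own values ran from 0.757 for H2-DMb1 to 0.983 for H2-Ab1. The points share 2 libraries and differ in depth, and these correlations are descriptions. Over the 807 macrophage-gated cells of KPCA.FSTKO the highest were Ctss (0.397), Plbd1 (0.384), Tmsb4x (0.373), Cst3 (0.340) and Cd52 (0.334), where the log2 total of UMIs gave 0.183. Over the 123 cells of KPCA.FSTKO_hFSTL3 they were Cd52 (0.525), Mgl2 (0.500), Atp5e (0.470), Bcl2a1b (0.467) and Gapdh (0.464), where it gave 0.274. Among the members, H2-Aa and H2-Eb1 went together most closely from cell to cell (r = 0.822 and 0.883 in the libraries), and H2-DMa and Ciita least (0.248 and 0.276).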

How the data were processed

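The authors made 10x Genomics 3′ libraries, used Cell Ranger (3.1.0 in the methods, 7.2.0 in the file headers) with mouse genome mm10, that is GRCm38, and deposited raw UMI counts per gene and barcode, not normalized. The filters of the methods were applied here, and no doublet caller was run, since the methods name none. The files held 168214773 and 80391504 UMIs. Gates counted detected markers (at least 3 of 11 dendritic, 5 of 12 macrophage, 6 of 13 fibroblast or 2 of 6 mesothelial, 6 of 14 cancer, 5 of 12 endothelial, and 2 monocyte markers under 500 CPM of C1q). The gate numbers, and the leaving out of 8 markers from the gate counts (Naaa, Wdfy4, Tnip3, Cacnb3, Fscn1, Zbtb46, Fn1 and Vcan), were set after marker distributions were seen. Within 1.5 times of the acinar limit of 3200 CPM lay 75 and 232 barcodes. The 7 genes and all lists were chosen with earlier results of these data known. Named genes are the members, the pathway lists, and the 5 genes most like the members in each likeness comparison. Where a gene had no UMI, 3 counts served as the upper limit. Alternatives covered the filter, the gates, clusters from Seurat 5.3.0 (R 4.3.3), TMM scaling with edgeR 4.0.16 (scaling only) and the size rule. Python 3.11.15, numpy 2.4.6, pandas 2.3.3, scipy 1.17.1 and matplotlib 3.10.9 were used, and the size rule was tested on simulated data. The sequences are from RefSeq. One result of the pathway lists is not reported here.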

Additional observations from a re-analysis of the deposited data

Results flagged for a closer look

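The mixed barcodes, which enter no comparison, held 799 CPM of the summed class II genes in 3487 barcodes of KPCA.FSTKO_hFSTL3 and 167 CPM in 87 barcodes of KPCA.FSTKO, and were singled out as a signal outside the gated classes. In KPCA.FSTKO_hFSTL3 they had a median of 14038 UMIs and a mitochondrial share of 11.4%, a median of 745 CPM of the 7 genes per barcode and 52.2% of barcodes with at least 10 class II UMIs. The 87 barcodes of KPCA.FSTKO had a median of 698 UMIs, and acinar genes stood at 138040 CPM there against 11368 CPM. Per C1q UMI the members stood at 0.649 (0.641 to 0.656) in mixed barcodes and 0.525 in macrophage-gated cells of KPCA.FSTKO_hFSTL3. In mixed barcodes of KPCA.FSTKO the value was 0.155. Which cells this signal comes from was not tested.

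Stromal-gated and macrophage-gated cells moved in opposite directions between the libraries. On the log2 scale, KPCA.FSTKO_hFSTL3 over KPCA.FSTKO, the summed genes stood at 1.34 in stromal-gated and -0.23 in macrophage-gated cells, which differ by 1.57. Without stromal-gated cells that pass on mesothelial markers the stromal value was -0.089. It came from 205 CPM (174 to 240) in KPCA.FSTKO_hFSTL3 and 218 CPM (204 to 233) in KPCA.FSTKO, which overlap within counting error. With 1 library per genotype this difference was not tested.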

How the results depend on the processing

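No paired analysis was possible because each genotype is 1 library. Of 85 alternative values of the log2 ratios, 49 stayed within counting error, 35 moved beyond it and 1 changed sign. No planned or added setting put macrophage-gated above dendritic-gated or cancer-gated above macrophage-gated cells. For dendritic over macrophage cells in KPCA.FSTKO (2.79), the values that moved were 2.83 with a stricter marker gate, 2.13 with classes from clusters, 2.94 with cells of more than 1 class kept, 3.29 without the 5% of cells with most member UMIs, 2.65 as a mean of cells and 3.04 without Cd74. In KPCA.FSTKO_hFSTL3 (2.56) they were 1.11 with clusters and 2.77 without Cd74. For macrophage over cancer cells in KPCA.FSTKO (6.98) they were 7.11 with a mitochondrial share under 10%, 6.76 with clusters, 6.38 with cells of more than 1 class kept, 7.41 without the highest 5%, 6.71 as a mean of cells and 6.41 without Cd74. In KPCA.FSTKO_hFSTL3 (8.09) they were 7.49 with the stricter gate, 7.62 with clusters, 6.24 with cells of more than 1 class kept, 7.32 as a mean of cells, 7.57 without Cd74, 7.66 with an acinar limit 2 times as high and 6.73 with none. For macrophage cells between libraries (-0.23) they were -0.27 with the stricter gate, -0.089 with clusters, -0.16 without the highest 5%, -0.31 with no acinar limit and -0.36 with TMM scaling. For dendritic cells (-0.46) they were -1.11 with clusters, -0.93 without the highest 5% and -1.16 with TMM. For stromal cells (1.34) they were 1.47 with the stricter gate, 1.18 with clusters, 1.54 with cells of more than 1 class kept, 0.74 without the highest 5%, 1.13 without Cd74 and 1.21 with TMM. The stromal value was -0.089 without cells that pass on mesothelial markers. This was the 1 change of sign, to a value where the levels of the libraries overlapped within counting error. The H2-DMb1 ratio of cancer cells (-2.27) moved beyond counting error under none of its settings. The causes of these shifts were not tested beyond what each setting changes. The acinar limits, the stromal result and the H2-DMb1 result were chosen after seeing the data. Genes past the size rule, higher and lower, numbered 133 and 138 in macrophage, 106 and 210 in stromal, and 415 and 925 in cancer cells. They became 428 and 626, 452 and 748, and 932 and 1820 with at least 20 UMIs, and 665 and 386, 566 and 536, and 1467 and 1778 with a ratio of at least 1.5. The number of gated cells, more than depth per cell, limits KPCA.FSTKO_hFSTL3, with 2 dendritic-gated cells and 18 H2-DMb1 UMIs in cancer-gated cells.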
